A study of Brassica oleracea with 15 samples.

Results

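The shaded flank of the Brassica oleracea hypocotyl, the seedling stem below the cotyledons, was compared with flanks of unstimulated seedlings, using the 3 arrays of each group, 6 of the 15 arrays of the series. All seedlings were wild type, 3 days old and grown in the dark. The shaded flank came from seedlings lit for 2 h with blue light from one side, and is the flank turned away from the lamp; control seedlings received a mock stimulation. The other 9 arrays hold the lit flank of the blue-light seedlings and the bottom and top flanks of seedlings given 2 h of gravity stimulation.

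Each sample was a pool from about 100 seedlings, and each flank section was about 1 cm long and held only the outer part of the hypocotyl, the vasculature having been cut away. About 20 ug of total RNA per sample was labelled and hybridised to an Arabidopsis ATH1 array, on which a probe set is a group of short probes for 1 Arabidopsis transcript. Brassica RNA on Arabidopsis probes gives a signal that depends on sequence match, so no gene's level was compared with that of another gene. Probe sets were tested when their mean log2 signal over all arrays was at or above the median of 8.28, which kept 11371 of 22810; 6284 of the tested ones carry 1 gene symbol. At that limit, the dimmest tested probe set differed by 0.95 log2 units between shaded flank and control and the brightest untested one by 0.64. The labelled tissue could not be checked against its markers. None of the markers listed for vascular tissue, epidermis or starch sheath matched a named probe set. Neither of the 2 guard cell markers with a named probe set was tested. OLEO3, a seed oil-body protein gene and the 1 seed storage marker tested, had a mean signal of 793 ± 64.7 (SD, n = 3) on shaded flank arrays and 839 ± 85.5 on control arrays. PYK10, a glucosidase gene best known from roots, had 2980 ± 351 and 2997 ± 111, and LBD16, the other root marker tested, had 1178 ± 257 and 921 ± 274, a log2 difference of 0.37 (SE 0.28).

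A hypocotyl bends towards light because its shaded side elongates more than its lit side. Blue light is perceived by phototropins, auxin accumulates on the shaded side, and auxin-responsive genes and wall-loosening enzymes act there. The same light also starts greening in dark-grown seedlings: nuclear genes of photosynthesis are switched on, and plastids, which carry their own genome and transcription machinery, turn into chloroplasts. Listed genes of both processes were compared between shaded flank and control where they could be tested. None of the genes listed for phototropism and photoreceptors or for auxin perception had a named probe set.

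A single transcript passed the test between shaded flank and control. nad4, which the mitochondrial genome encodes and which makes a subunit of respiratory complex I, had signals of 3101, 3008 and 4265 on the shaded flank arrays and of 10077, 7185 and 7359 on the control arrays. The groups did not overlap, and the highest shaded array lay well below the lowest control array. The mean was 2.37-fold lower in the shaded flank (log2 difference -1.25, SE 0.18, adjusted p = 0.034, limma, n = 3 and 3). In pooled tissue, fewer cells or organelles with a transcript and less of it in each cannot be told apart. The 1 call is 0.00879% of the probe sets tested, and as a call on the lower side it is also 0.00879%.

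Outside that transcript, differences were given as values. At an unadjusted p under 0.05 there were 842 probe sets (7.40% of those tested), 385 higher in the shaded flank (3.39%) and 457 lower (4.02%). All 3 shaded flank arrays lay above all 3 control arrays for 710 probe sets (6.24%) and below them for 800 (7.04%). The median difference over all tested probe sets was 0.00 log2 units, and the 5th and 95th percentiles were -0.60 and 0.64. The median SD between arrays of a group was 0.29 log2 units for shaded and 0.26 for control arrays, and 3 arrays per group limit the precision. The call of nad4 was lost (adjusted p from 0.051 to 0.13) without shaded flank replicate 1 or 2, without control replicate 1 or 2, and without each of 6 arrays of the other groups (lit 1 and 3, bottom 1, 2 and 3, top 3). Its log2 difference stayed between -1.41 and -1.02 in every setting tried. Without control replicate 3 there were 10 calls, 7 of them higher.

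**Figure D1:**
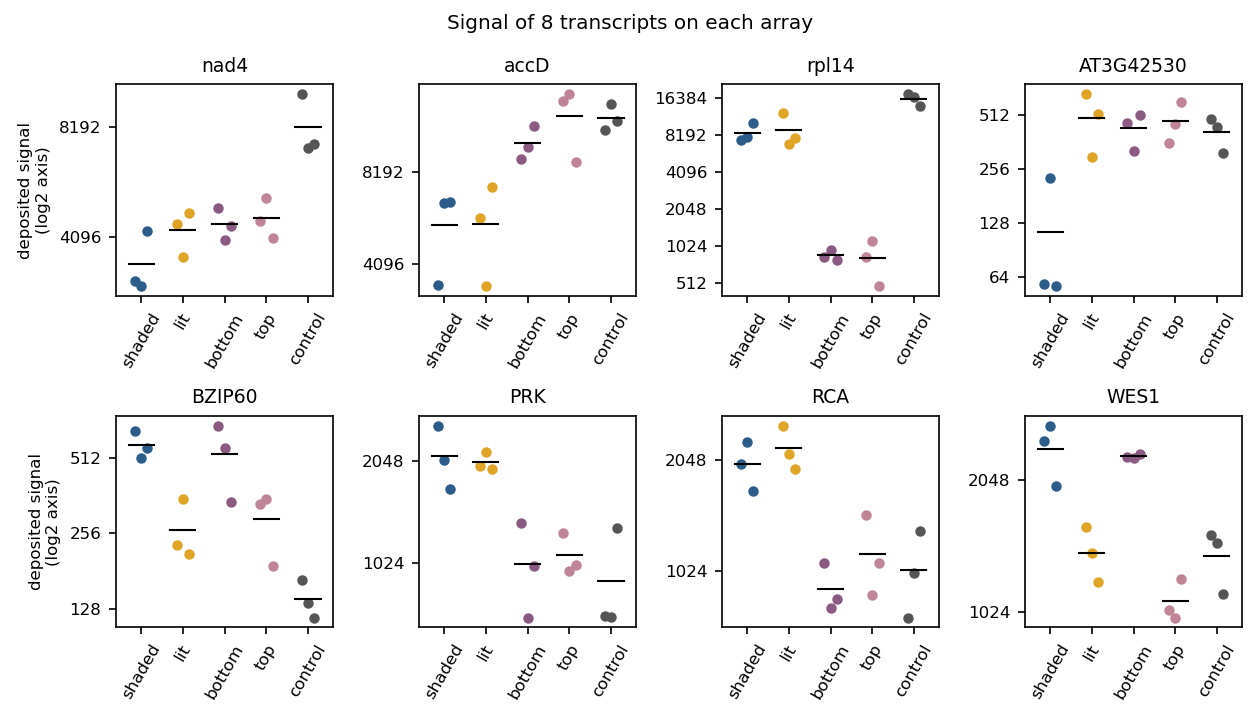
Deposited signal of 8 transcripts on each of the 15 arrays, on a log2 axis; points are arrays, grouped by flank, and the line is the arithmetic mean of 3 arrays. nad4 was lower on all 3 shaded flank arrays than on any control array, and PRK and RCA were high on both blue-light flanks.

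Among probe sets with 1 gene symbol, those nearest to the threshold on the higher side included several of photosynthetic carbon fixation. Some probe sets without a gene symbol lay nearer, the nearest at a log2 difference of 1.83 (limma, adjusted p = 0.077). BZIP60, described below, also lay nearer (adjusted p = 0.15). PRK encodes phosphoribulokinase, which makes the CO2 acceptor of the Calvin cycle. Its signal was 2609, 2062 and 1695 on the shaded flank arrays and 714, 710 and 1299 on the control arrays. The groups did not overlap, and control replicate 3 was the high one of its group. The difference was 1.26 log2 units (SE 0.26, adjusted p = 0.18). SBPASE, whose bisphosphatase acts in the regenerative phase of the same cycle, read 3001, 3434 and 4066 against 1243, 1200.2 and 2452. RCA, which encodes Rubisco activase, read 2004, 2295 and 1691 against 762, 1006 and 1315. HPR, a hydroxypyruvate reductase gene of photorespiration, read 1106, 1080.3 and 831 against 423, 394 and 578. In all 4 genes the lowest shaded array was above the highest control array, and control replicate 3 was the highest control. The differences of SBPASE, RCA and HPR were 1.17 (SE 0.29), 0.98 (SE 0.23) and 1.12 (SE 0.29) log2 units, with adjusted p of 0.28, 0.24 and 0.28.

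Of the 5 tested genes listed for carbon fixation, 0 passed the test, 4 had an unadjusted p under 0.05 and a higher mean, and the same 4 had arrays that did not overlap, against the 6.24% of all probe sets given above. The median difference was 1.12 log2 units. The remaining gene, TPI, a triose phosphate isomerase gene, had a signal of 35285 ± 5268 on the shaded and 38369 ± 2761 on the control arrays, a difference of -0.13 log2 units. Relative to the control mean, the median of the 5 genes was 1.00, 1.19 and 0.86 on the shaded arrays and -0.29, -0.22 and 0.39 on the control arrays. Without control replicate 3 the median was 1.29, and PRK passed the test there (log2 difference 1.55, adjusted p = 0.030). When 1 array at a time was left out, the median ran from 0.99 to 1.29. PRK passed in 1 of 27 settings tried, and its adjusted p (limma) reached 0.70 in another.

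AT5G22620, named for a phosphatase that removes an inhibitor of Rubisco, lies outside that list. It read 358, 808 and 568 on the shaded arrays and 130, 153 and 160 on the control arrays, a difference of 1.90 log2 units (SE 0.48, adjusted p = 0.28). Every shaded array lay above every control array, but the shaded arrays themselves spread more than the controls. The difference from the control was 0.84 for lit, 1.66 for bottom and 1.79 for top, so it was not larger in both blue-light flanks than in the gravity flanks. The mean log2 signal of AT5G22620, 8.44, was near the filter limit. Its control arrays lay below that limit, so it was tested only because of its higher flank arrays.

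Nuclear genes of light harvesting and the photosystems leaned the same way. Of the 10 tested, 0 passed the test and all 10 had a difference above 0, with a median of 0.43 log2 units; 3 had an unadjusted p under 0.05 and a higher mean, against 3.39% of all probe sets, and 2 had all shaded arrays above all control arrays, against 6.24%. HCF101, which supplies iron-sulphur clusters to photosystem I, read 744, 844 and 947 against 459, 482 and 418, a difference of 0.89 log2 units (SE 0.21, adjusted p = 0.24). Its groups lay far apart relative to their spread. ATPC1, the gamma subunit gene of the chloroplast ATP synthase, read 2237, 2404 and 2653 on the shaded arrays and 784, 776 and 2351 on the control arrays. Here control replicate 3 alone reached the shaded level, and without it ATPC1 passed the test (log2 difference 1.64, adjusted p = 0.030). In no other setting tried did ATPC1 pass. PSAE-1, of photosystem I, differed by 0.44 (SE 0.20). The LHCB4.1, LHCB4.2 and LHCB4.3 genes, for a minor antenna protein of photosystem II, differed by 0.56, 0.42 and 0.42, with control ranges that overlapped the shaded ones. The group median over these 10 genes was -0.36, 0.04 and 0.40 on the control arrays, so the control arrays were themselves spread, and the median difference was 0.17 without control replicate 1 and 0.68 without control replicate 3. Under median centring of the arrays, 9 of the 10 differences were above 0.

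Genes of chlorophyll synthesis and plastid development showed smaller differences. Of 10 tested, 0 passed the test at either the adjusted or the unadjusted threshold, 8 differences were above 0, and the median was 0.20 log2 units. HEME2, a uroporphyrinogen decarboxylase gene, differed by 0.47 (SE 0.32), and CLPP4, of the plastid Clp protease, by -0.48 (SE 0.39). GSA1, whose enzyme makes the tetrapyrrole precursor aminolevulinate, differed by 0.24 (SE 0.22). In 1 of the 10 genes the shaded arrays lay above the controls, a share near the 6.24% of all probe sets.

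Plastid-encoded transcripts leaned the other way. The plastid genome encodes core subunits of the photosystems, the cytochrome b6f complex, the ATP synthase and the NDH complex, besides ribosomal proteins and an RNA polymerase. Of 67 tested plastid transcripts, 0 passed the test, 61 were lower in the shaded flank and 6 higher, with a median of -0.42 log2 units. An unadjusted p under 0.05 was reached by 20, all of them lower, which is to be read against the 4.02% of all probe sets. On 27 of the 67 all shaded arrays lay below all control arrays, against 7.04% of all probe sets, and on 0 were they above. Many plastid transcripts are processed from shared precursors, so the members are not independent of each other.

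The lowest values were in genes of several complexes. accD, for a subunit of the plastid acetyl-CoA carboxylase of fatty acid synthesis, read 3487, 6460 and 6507 against 11194, 13605 and 12030, a difference of -1.21 log2 units (SE 0.28, adjusted p = 0.24). psaI, a small subunit of photosystem I, read 2578, 3704 and 5022 against 8479, 8931 and 8336, a difference of -1.24 (SE 0.28, adjusted p = 0.24). petA, for cytochrome f, read 2493, 2827 and 2797 against 4848, 6745 and 5135, a difference of -1.03 (SE 0.24, adjusted p = 0.24). In these 3 genes each shaded array was below each control array, and shaded replicate 1 was the lowest array. They lie in 1 gene cluster of the Arabidopsis plastid genome with ycf4 and cemA, for which the differences were -0.36 (SE 0.40) and -0.33 (SE 0.18). ndhI, of the NDH complex, read 2199, 2123 and 4450 against 8799, 5414 and 6576, a difference of -1.30 (SE 0.32, adjusted p = 0.28). psbM, of photosystem II, read 1419, 1280.1 and 1398 against 2508, 3005 and 2641, a difference of -0.99 (SE 0.22, adjusted p = 0.24). rpoC2, of the plastid RNA polymerase, read 2020, 3284 and 3516 against 5003, 4935 and 5038, a difference of -0.81 (SE 0.19, adjusted p = 0.24). psbM was the most even of these 3 across the shaded arrays, and ndhI the least.

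By complex, the median difference was -0.63 over the 6 tested cytochrome b6f genes, all of which were lower. It was -0.46 over 5 genes of photosystem I, -0.42 over 15 of photosystem II, -0.46 over 9 of the NDH complex and -0.19 over 6 of the ATP synthase. The 4 RNA polymerase genes had a median of -0.42 and the 14 ribosomal protein genes one of -0.35. In the cytochrome b6f complex petG differed by -0.89 (SE 0.24) and petL by -0.57 (SE 0.23); in the NDH complex ndhD differed by -0.88 (SE 0.22). In photosystem I psaB differed by -0.71 (SE 0.23), and in photosystem II psbL by -0.94 (SE 0.33). Among the ATP synthase genes atpH differed by -0.62 (SE 0.18), while atpB differed by 0.10 (SE 0.18). rbcL, for the large subunit of Rubisco, differed by -0.24 (SE 0.28), and psbA, for the D1 protein of photosystem II, by -0.42 (SE 0.25). The 6 transcripts with a higher mean were psbD at 0.66 (SE 0.34), atpF at 0.59, rps14 at 0.42, ndhK at 0.38, psaA at 0.29 and atpB, and all 6 had overlapping arrays. psbD, for the D2 protein of photosystem II, read 6492, 7675 and 13012 against 3871, 6990 and 6032.

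**Figure D2:**
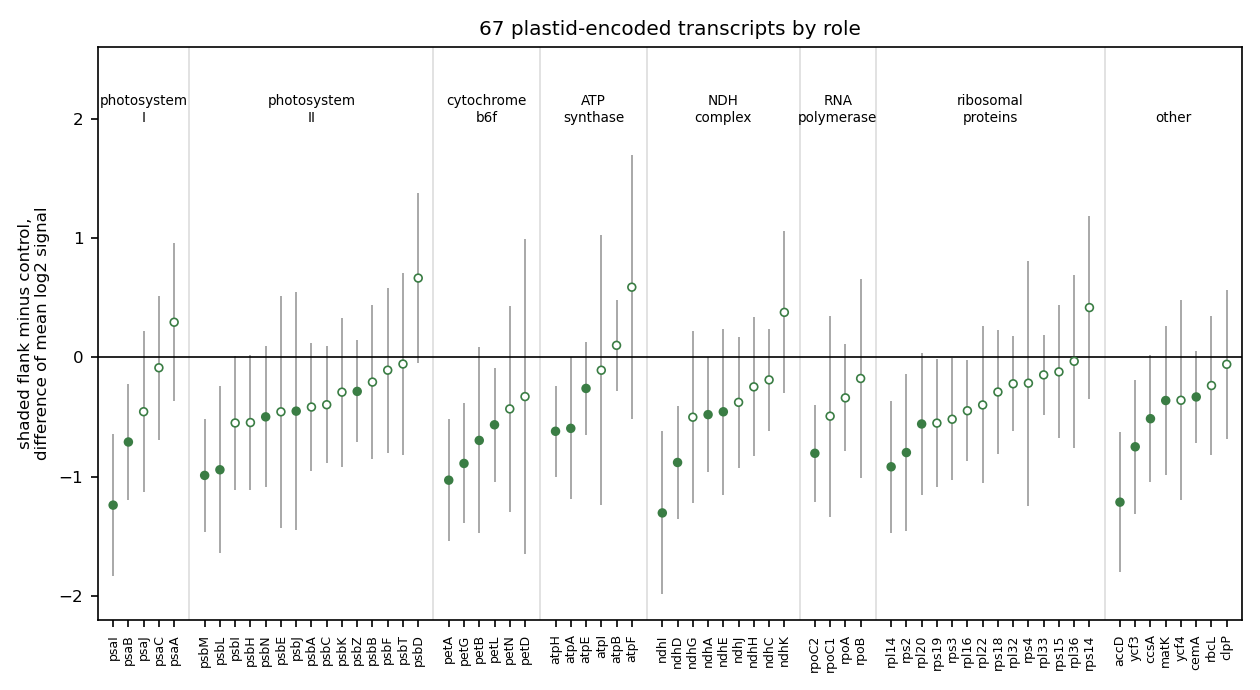
Difference of mean log2 signal, shaded flank minus control, for 67 plastid-encoded transcripts ordered within each role; bars are 95% confidence intervals from the limma fit, and filled points mark transcripts whose 3 shaded arrays did not overlap the 3 control arrays. Points below 0 number 61 and points above 0 number 6.

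Relative to the control mean, the median over the 67 plastid transcripts was -0.67, -0.46 and -0.13 log2 units on the 3 shaded arrays and -0.02, 0.03 and -0.05 on the 3 control arrays. The shaded arrays were therefore uneven, with replicate 1 the lowest and replicate 3 nearest to the controls. Without shaded replicate 1 the median difference was -0.30, with 56 of 67 below 0, and without shaded replicate 3 it was -0.58. Signal level moved with this result. Among 323 tested probe sets with a mean log2 signal of 12 or more that belong to no listed organelle gene, 250 were lower in the shaded flank. Their median was -0.18, and 89 of the 323 had all shaded arrays below all control arrays. Of the plastid transcripts, 24 reached that signal level. Among these 24, 21 were lower, the median was -0.37, and 10 had all shaded arrays below all control arrays. After quantile normalization the median of the 323 probe sets was -0.01, and 31 of them had all shaded arrays below all control arrays. The median of the 67 plastid transcripts was then -0.32, with 57 below 0 and 24 with all shaded arrays below all control arrays. The 7.04% over all probe sets given above holds for the values before this normalization. A measure of RNA length was given by the 3' minus 5' difference of the array's control transcripts. In one set of these, shaded minus control was -0.21 log2 units (two-sided exact permutation p = 0.40, n = 3 and 3). In another set the measure was -0.29 ± 0.18 on shaded and 0.06 ± 0.30 on control arrays (exact permutation p = 0.20), and the difference of -0.35 was -0.18 without control replicate 1. The smallest p that 3 against 3 allows is 0.10, and the part of RNA length in the plastid result was not tested.

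**Figure D3:**
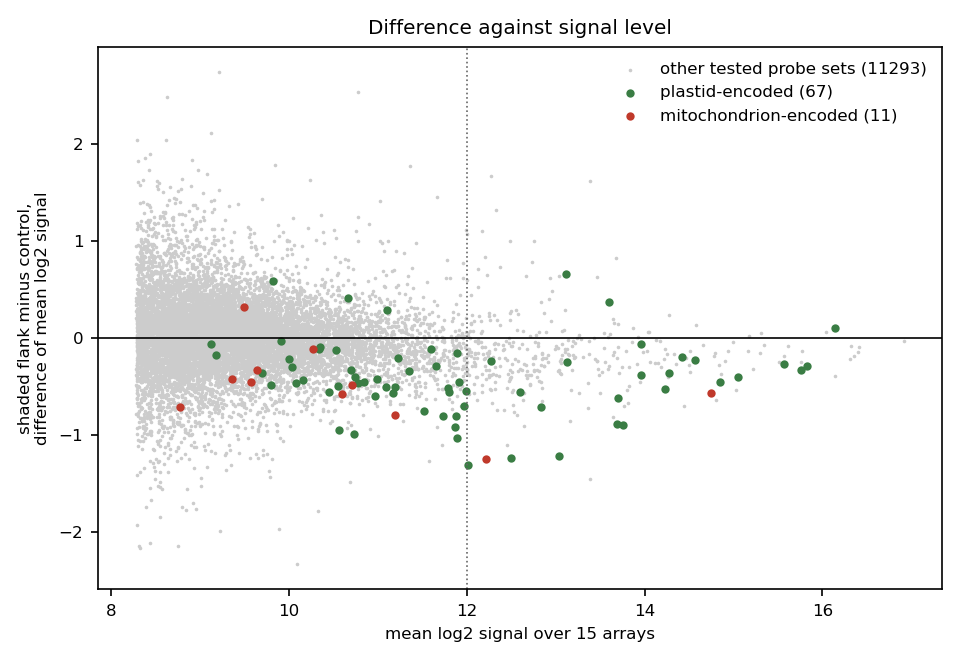
Difference of mean log2 signal, shaded flank minus control, against the mean log2 signal over 15 arrays, one point per tested probe set; the dotted line is at a log2 signal of 12. The 67 plastid-encoded and 11 mitochondrion-encoded transcripts sit mostly below 0, and bright probe sets of other genes also lie more often below 0 than above.

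Mitochondrion-encoded transcripts were lower as well. Of 11 tested, 1 passed the test (nad4), 10 had a lower mean, and the median was -0.48 log2 units; 6 had all shaded arrays below all control arrays (7.04% over all probe sets) and 1 had them above (6.24%). cox1, for the core subunit of cytochrome c oxidase, read 1705, 1586 and 2094 against 4888, 2627 and 2312, a difference of -0.80 (SE 0.26, adjusted p = 0.41). Control replicate 1 was the high array. orfX, a mitochondrial open reading frame, differed by -0.48 (SE 0.17). Among genes of cytochrome c assembly, ccb382 differed by -0.56 (SE 0.24) and ccb452 by -0.58 (SE 0.22). nad1, a further complex I gene, was the exception at 0.33 (SE 0.20), with all its shaded arrays above the controls. AT2G07708, a locus in the nuclear copy of mitochondrial DNA whose signal cannot be told apart from the mitochondrial one, read 1198, 1662 and 1559 against 2588, 2272 and 2259, a difference of -0.70 (SE 0.17, adjusted p = 0.28).

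Nuclear genes of mitochondrial respiration did not share one direction: of 8 tested, 4 were higher and 4 lower, with a median of -0.03 and 0 past the test. NDB2, for an alternative NADH dehydrogenase, had the widest difference in this list. It read 132, 138 and 124 on the shaded arrays and 310, 692 and 907 on the control arrays, a difference of -2.14 log2 units (SE 0.54, adjusted p = 0.28). The shaded arrays were close together and low, and the controls were spread; the mean log2 signal of NDB2, 8.31, lies close to the filter limit. CYTC-1 and SDH2-1, for cytochrome c and a subunit of succinate dehydrogenase, differed by -0.29 (SE 0.23) and -0.21 (SE 0.16).

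**Figure D4:**
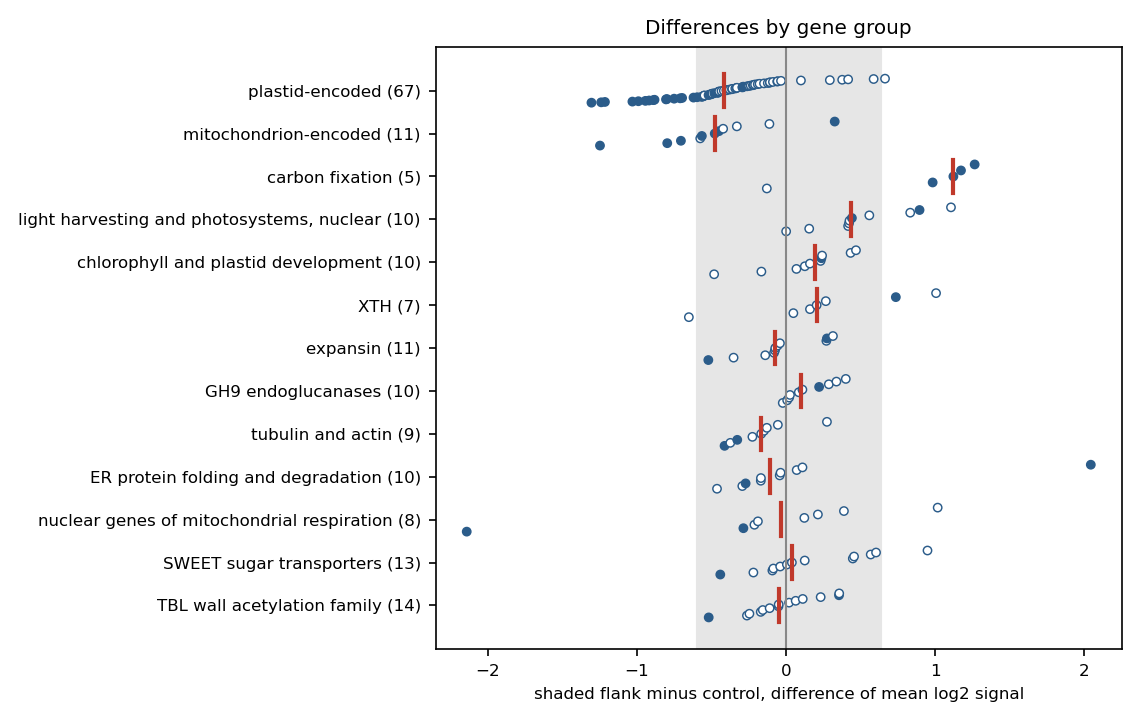
Difference of mean log2 signal, shaded flank minus control, for the tested members of 13 gene groups; filled points mark genes whose shaded and control arrays did not overlap, red lines are group medians, and the grey band spans the 5th to 95th percentile of all tested probe sets, -0.60 to 0.64. Carbon fixation has the highest group median, 1.12, and mitochondrion-encoded genes the lowest, -0.48.

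Outside the organelles, the highest of the named genes by size was BZIP60, a transcription factor gene of the unfolded protein response of the endoplasmic reticulum. It read 653, 512 and 560 on the shaded arrays and 167, 135 and 118 on the control arrays. All shaded arrays were above all control arrays by a wide margin. The difference was 2.04 log2 units (SE 0.40, adjusted p = 0.15), or 4.12-fold. The mean log2 signal of BZIP60 over all arrays, 8.28, was at the limit of the filter. Its control arrays lay below that limit, so it was tested only because of its higher flank arrays. The other tested genes of protein folding and degradation in the endoplasmic reticulum did not share this size: of 10 with BZIP60, 3 were higher and 7 lower, the median was -0.11, and BZIP60 was the 1 gene with an unadjusted p under 0.05. BZIP17 and BZIP28, which encode related membrane-bound factors, differed by -0.17 (SE 0.16) and -0.46 (SE 0.61), and the calreticulin gene CRT1b by -0.17 (SE 0.16). DER2.1, of the Derlin family in protein export from the endoplasmic reticulum, differed by -0.27 (SE 0.20).

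Few of the listed auxin-response genes could be tested. The annotation does not list 8794 of the array's 22810 probe sets, so genes without a named probe set may still be on the array. WES1, also known as GH3.5, encodes an enzyme that conjugates auxin with amino acids. It read 2507, 2721 and 1987 on the shaded arrays and 1534, 1468 and 1123 on the control arrays. The groups did not overlap. The difference was 0.81 log2 units (SE 0.18, adjusted p = 0.23), or 1.75-fold. HAT2 encodes a homeodomain-leucine zipper factor induced by auxin. It read 941, 1853 and 1342 against 609, 664 and 972, a difference of 0.86 (SE 0.28, adjusted p = 0.43). Control replicate 3 overlapped the lowest shaded array. GH3.9 differed by -0.68 (SE 0.48), and LBD16, a transcription factor gene downstream of auxin and also a root marker, by 0.37 (SE 0.28). None of the 7 Aux/IAA genes with a probe set was bright enough to be tested. The auxin synthesis genes YUC2 and YUC4 differed by -0.08 (SE 0.23) and 0.24 (SE 0.24), and WAG2, for a kinase of auxin transport, by -0.06 (SE 0.22).

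Wall-loosening and cytoskeleton genes were mixed, and 0 of them passed the test. Of 7 XTH genes, which encode enzymes that cut and rejoin xyloglucan, 6 were higher, with a median of 0.20 log2 units. XTH32 read 1666, 1694 and 2446 against 839, 1160 and 1537, a difference of 0.74 (SE 0.26). XTH19 read 605, 496 and 311 against 201, 175 and 329, a difference of 1.01 (SE 0.39), with a mean log2 signal of 8.39, near the filter limit. XTH33 read 1091, 1459 and 1065 against 2805, 1868 and 1255, a difference of -0.65 (SE 0.25). The shaded and control arrays overlapped in XTH19 and XTH33 and not in XTH32. Under median centring 5 of the 7 XTH differences were above 0.

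Of 11 expansin genes, 8 were lower and the median was -0.07; without shaded replicate 1 and control replicate 1 together, 6 were lower and 5 higher. EXPA9 differed by -0.52 (SE 0.22), with shaded arrays of 3416, 2773 and 2729 below control arrays of 3823, 5054 and 3956. EXPA8 differed by 0.27 (SE 0.16), with its shaded arrays above the controls, and EXPA15 by -0.35 (SE 0.22). Of 9 tubulin, actin and microtubule genes 8 were lower, with a median of -0.17 (7 of 9 after quantile normalization). The beta-tubulin gene TUB7 differed by -0.41 (SE 0.17), TUB6 by -0.33 (SE 0.26) and the alpha-tubulin gene TUA6 by -0.37 (SE 0.19); these 3 are bright, with mean log2 signals of 12.67, 12.22 and 12.29, a range in which most probe sets were lower.

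Other wall families lay near 0. Of 10 GH9 endoglucanase genes 9 were higher, with a median of 0.10, and GH9C3, GH9B7 and GH9B18 differed by 0.40 (SE 0.27), 0.34 (SE 0.25) and 0.22 (SE 0.23). Of 14 TBL genes, a family of wall polysaccharide acetylation, 8 were lower, with a median of -0.05; TBL18 differed by 0.36 (SE 0.24), TBL35 by 0.35 (SE 0.31) and TBL37 by -0.17 (SE 0.17). COB, which orients cellulose deposition, differed by 0.14 (SE 0.28). Of 13 SWEET sugar transporter genes 8 were higher, with a median of 0.04; SWEET6 differed by -0.44 (SE 0.21), SWEET17 by 0.57 (SE 0.28) and SWEET8 by 0.46 (SE 0.24).

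Signalling lists had 1 to 3 tested genes each. FHL and AFR, both of phytochrome A signalling, differed by 0.82 (SE 0.49) and -0.75 (SE 0.30). The mean log2 signal of FHL, 8.30, was near the filter limit. The clock genes GI and TIC differed by -0.13 (SE 0.25) and 0.02 (SE 0.22). RTE1 and EIN3, of ethylene signalling, differed by 0.82 (SE 0.34) and 0.24 (SE 0.24), and the gibberellin genes SPY and GID1C by -0.61 (SE 0.27) and -0.04 (SE 0.45). CML42, a calmodulin-like gene, differed by -0.57 (SE 0.27), and the peroxidase gene PRXR1 by -0.52 (SE 0.27). The dehydrin gene COR47 differed by 0.19 (SE 0.30). Among flavonoid and phenylpropanoid genes UGT78D2, DFR and HCT differed by 0.28 (SE 0.32), 0.04 (SE 0.24) and -0.03 (SE 0.22).

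The remaining named genes are less well characterised or fall in none of these groups. AT3G09470 read 499, 420 and 749 against 159, 172 and 190, a difference of 1.64 (SE 0.37, adjusted p = 0.24). Its control arrays lay below the filter limit, so it was tested only because of its higher flank arrays. AT1G01800, AT1G10310, AT3G42630 and AT1G64355 were higher by 1.17, 1.13, 0.97 and 0.92 log2 units, with adjusted p between 0.23 and 0.25. On the lower side AT5G53880 read 343, 240.2 and 223 against 1134, 1028 and 589, a difference of -1.74 (SE 0.35, adjusted p = 0.15). ATNTH1, for a DNA glycosylase of base excision repair, differed by -0.95 (SE 0.21, adjusted p = 0.24) and AT4G16240 by -0.63 (SE 0.14, adjusted p = 0.24). In all 24 genes named by size or p, shaded and control arrays did not overlap. Over all tested probe sets, all shaded arrays lay above all control arrays for 6.24% and below them for 7.04%. The 24 genes were picked in this same comparison, so their lack of overlap is no separate result.

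**Figure D5:**
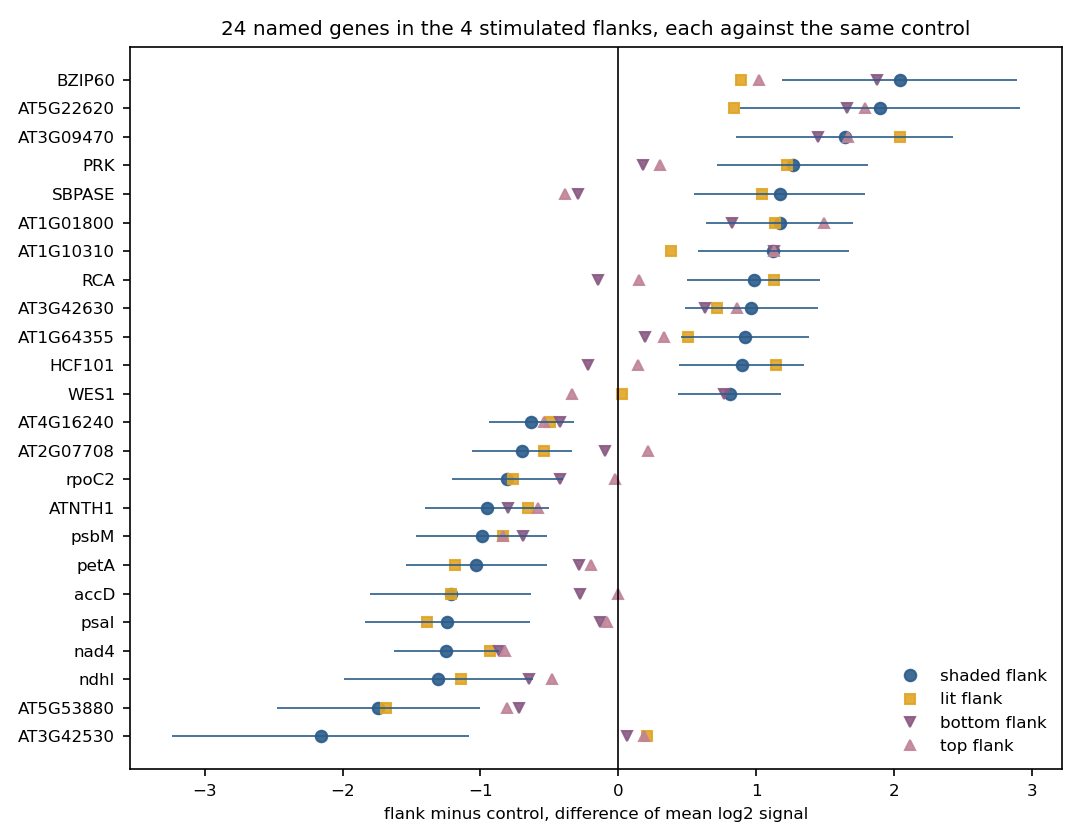
Difference of mean log2 signal from the control for 24 named genes in the 4 stimulated flanks; all 4 differences of a gene use the same 3 control arrays, and bars are 95% confidence intervals for the shaded flank. PRK, SBPASE, RCA and HCF101 were at 0.89 or above in both blue-light flanks and at 0.30 or below in both gravity flanks, and AT3G42530 was low in the shaded flank.

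The lit flank of the same blue-light treatment was then set beside the shaded flank. Same-numbered arrays of the 2 flanks may come from the same seedlings, but the fit did not pair them. Whether they deviate together was not checked, and the counts and intervals below take no account of it. Between the flanks 0 probe sets passed the test (0% of 11371, limma), and 598 had an unadjusted p under 0.05 (5.26%). PRK read 1981, 2173 and 1947 on the lit arrays, and the flanks differed by 0.04 log2 units (95% confidence interval -0.51 to 0.59). For RCA the flank difference was -0.15 (-0.63 to 0.34), for SBPASE 0.13 (-0.49 to 0.75) and for nad4 -0.32 (-0.70 to 0.07). For accD it was 0.00 (-0.58 to 0.58) and for petA 0.15 (-0.36 to 0.66). None of these 6 intervals excludes 0, and each leaves room for a difference of at least 0.3 log2 units. WES1 read 1601, 1392 and 1195 on the lit arrays, all below the shaded ones, and the flanks differed by 0.78 (0.41 to 1.15, adjusted p = 0.39). BZIP60 read 231, 350 and 212 on the lit arrays, again all below the shaded ones, with a flank difference of 1.15 (0.30 to 2.01, adjusted p = 0.82). HAT2 differed between the flanks by 0.85 (0.26 to 1.45, adjusted p = 0.74), and XTH32 was lower in the shaded flank by -0.82 (-1.38 to -0.26, adjusted p = 0.73).

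Against the control, the lit flank had 41 calls (0.361% of 11371), but the 2 flank comparisons share their control arrays, so their counts and values are only set side by side. For nad4 the difference from the control was -1.25 for shaded, -0.93 for lit, -0.87 for bottom and -0.82 for top, with adjusted p of 0.034, 0.039, 0.044 and 0.043. For PRK these differences were 1.26, 1.22, 0.18 and 0.30, and for RCA 0.98, 1.13, -0.14 and 0.15. The median over the plastid transcripts was -0.42, -0.43, -0.05 and -0.09, and over the carbon fixation genes 1.12, 1.13, -0.14 and 0.15. For BZIP60 they were 2.04, 0.89, 1.88 and 1.02, and for WES1 0.81, 0.02, 0.77 and -0.34. The carbon fixation and plastid group values were thus alike in sign and size in the blue-light flanks. By array, the plastid median was -0.07, -0.81 and -0.30 on lit, 0.05, -0.21 and 0.11 on bottom and 0.06, 0.15 and -0.38 on top arrays. With shaded arrays at -0.67, -0.46 and -0.13, plastid values overlapped between blue-light and gravity flanks. The carbon fixation median was 1.08, 1.09 and 0.98 on lit arrays and at most 0.53 on gravity arrays. The values of WES1 and BZIP60 were nearer between the shaded and the bottom flank. None of these likenesses was tested.

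Against the mean of the lit, bottom and top flanks, a comparison that uses no control array, 12 probe sets passed the test (0.106% of 11371), 3 higher and 9 lower in the shaded flank. AT3G42530, 1 of the called genes, was low on the shaded arrays alone. It read 58.4, 226 and 56.5 on the shaded arrays, 668, 297 and 516 on the lit arrays and 483, 440.1 and 312 on the control arrays. The bottom and top arrays lay between 323 and 601, so all 3 shaded arrays were below all 12 others. Its difference from the other flanks was -2.31 log2 units (SE 0.42, adjusted p = 0.037), from the lit flank -2.37 (adjusted p = 0.39) and from the control -2.16 (SE 0.51, adjusted p = 0.24). The call was lost in 18 of 26 settings, among them each that left out 1 array other than shaded replicate 2 or lit replicate 2 (adjusted p up to 0.23), and its mean log2 signal of 8.32 is near the filter limit.

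AFR, for an F-box protein of phytochrome A signalling, was lower in the shaded flank than in the other flanks by -1.90 log2 units (SE 0.25, adjusted p = 0.0027). It read 551, 262 and 440 on the shaded arrays, 934, 990.2 and 940.2 on the lit arrays, and from 1558 to 2249 on the bottom and top arrays. The control arrays, at 436, 602 and 1142, overlapped the shaded ones. In the same limma fit AFR differed by -1.26 from the lit flank (adjusted p = 0.45) and by -0.75 from the control (adjusted p = 0.59). Every bottom and top array of AFR lay above every shaded, lit and control array. For the called genes rpl14, rpl16 and AT4G26870, too, it was the bottom and top arrays that lay apart from all others. rpl14, a plastid ribosomal protein gene, read 7420, 7813 and 10168 on the shaded arrays, from 6891 to 12193 on the lit arrays and from 478 to 1112 on the bottom and top arrays, with the controls highest at 13864 to 17471. The shaded flank was thus far above the gravity flanks, beside the lit flank and 1.89-fold below the control (log2 difference -0.92, SE 0.26, adjusted p = 0.30). rpl16, of the same gene cluster in Arabidopsis, was higher than in the other flanks by 0.96 (SE 0.16, adjusted p = 0.028). That call was lost in 8 of 27 settings (adjusted p up to 0.17), among them without shaded replicate 2 or 3 and without bottom replicate 1 or 2. AT4G26870 read 1150.2, 1337 and 459 on the shaded arrays and from 5262 to 6116 on the bottom and top arrays. Its lit and control arrays, from 799 to 1259, overlapped the shaded ones, and the difference from the other flanks was -1.79 (SE 0.23, adjusted p = 0.0027).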

How the data were processed

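Total RNA of 15 samples was measured on Affymetrix ATH1 arrays, 3 per group. The deposited values are intensities, 1 linear signal per probe set; the submitters' processing notes name the program GCOS 3.0. With 2% trimmed at each end every array's mean was 500, so these values had been scaled array by array. The program's settings are not stated in the labels, and no detection calls were used. The 1 value at or below 0 was set to the smallest positive value, 0.4, log2 was taken, and 64 control probe sets (AFFX) were not tested.

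With limma 3.58.1 (R 4.3.3), 1 linear model held the mean of each of the 5 groups over the 15 arrays, with 10 residual degrees of freedom and eBayes variance moderation along signal intensity. Adjusted p values are Benjamini-Hochberg values over 11371 probe sets with a threshold of 0.05, and fold changes are differences of mean log2 signals. Gene names come from the platform's annotation, in which 13513 probe sets carry 1 symbol, 503 several and 8794 are not listed; no gene was named from several symbols. The series' design text calls the samples biological triplicates.

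The comparison and the gene lists were chosen with earlier results of these data known, and 5 lists (endoplasmic reticulum, nuclear respiration, GH9, TBL and SWEET) were added after the values were seen. Of 1256 symbols listed, 275 had a named probe set and 209 were tested. Up to 15 called genes each way were named, filled to 12 each way by smallest p, and from each list up to 3 of smallest p; further list members, HPR among them, were chosen after their values were seen. Same-numbered shaded and control arrays did not deviate together (correlations of -0.04, 0.01 and -0.08), so the numbers were not taken as pairs. Shaded and lit arrays were not checked in this way. No array stood clearly apart; shaded replicate 1 had the lowest median correlation with the other 5 arrays compared, 0.825, against 0.847 to 0.856 for the rest.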

Additional observations from a re-analysis of the deposited data

Results flagged for a closer look

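Genes whose shaded flank differed from the mean of the other 3 stimulated flanks in a test of that difference (limma, adjusted over all tested probe sets) were rpl14 (log2 difference 2.24, adjusted p = 0.00011), AT4G26870 (-1.79, adjusted p = 0.0027), AFR (-1.90, adjusted p = 0.0027), rpl16 (0.96, adjusted p = 0.028, lost in 8 of 27 settings) and AT3G42530 (-2.31, adjusted p = 0.037, lost in 18 of 26). In rpl14, rpl16, AT4G26870 and AFR the bottom and top arrays stood apart from those of all other groups. WES1 was 0.81 log2 units above the control in the shaded flank, with every shaded array higher, and -0.34 in the top flank, with every top array on the other side of the control mean; this difference between flanks was not tested. AT2G07708 was at -0.70 in the shaded and 0.21 in the top flank in the same way, also not tested.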

How the results depend on the processing

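Between shaded flank and control the count of calls went from 1 to 0 under quantile normalization, with no filter on dim probe sets, without the intensity trend, with the robust variance model and with only the 6 arrays compared (adjusted p of nad4 from 0.052 to 0.26); with the replicate number as a block it was also 0, and the adjusted p of nad4 was 0.066. Leaving out 1 array at a time gave 0 to 10 calls; without control replicate 1 the call was AT5G05320 (log2 difference 2.04) and without shaded replicate 1 an unnamed probe set, in place of nad4. Against the lit flank such counts ran from 0 to 3, and the added setting without shaded replicate 1 and control replicate 1, chosen after the data were seen, gave 3. Against the mean of the other flanks the 12 calls became 5 with no filter, 7 without the trend and 7 with only the arrays compared, and 7 to 15 when 1 array was left out. The cause of these shifts was not tested. Without a filter a larger number of probe sets was tested, and the part of that number in the shift was not separated. None of the 24 genes named by size or p, nor the 5 named genes called against the other flanks, changed direction in the settings in which they were tested; other list members near 0 were not followed one by one, and some turn sign under median centring. Signal near the filter limit (among others BZIP60, FHL, NDB2, AT3G42530, XTH19 and AT5G22620) and probe mismatch limit the dim genes. BZIP60, AT5G22620 and AT3G09470 had control arrays below that limit and were tested only through their higher flank arrays.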
